A study of Mus musculus with 8 samples.

Results

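Amino acid transporters were followed in NG4 mouse embryonic stem cells after siRNA knockdown of Sox2, Psmd14 or Ddb1. The members were taken by gene symbol, as the genes of the solute carrier families Slc1a, Slc3a, Slc6a, Slc7a, Slc36a, Slc38a and Slc43a, and the symbol rule itself used no measured value. The rule gave 63 of the 18193 genes with a symbol of their own on the array. Of these, 60 are carrier genes or their partner chains, and 3 (Slc7a6os, Slc36a1os and Slc6a19os) are genes named only for lying opposite a carrier gene. Each gene was read by its brightest probe set over all arrays, and every one of the 63 was tested, with no filter on low values.

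The cells were embryonic stem cells of the line NG4, reverse transfected with siRNA and taken for RNA 48 h later. The groups were siNonTarget (a non-targeting siRNA, the control), siSox2 (against the pluripotency transcription factor Sox2), siPsmd14 (against the deubiquitinase of the proteasome lid) and siDdb1 (against the adaptor of CUL4 ubiquitin ligases), with 2 Affymetrix arrays in each. The labels do not state whether the arrays of a group were grown as separate cultures. The p-values therefore reflect array-to-array spread alone, and that spread may be technical. In bulk RNA, fewer cells of a type and less RNA per cell cannot be told apart.

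Amino acid carriers of these families move their substrates across the plasma membrane or out of lysosomes. The heteromeric carriers pair a light chain of the Slc7 family with a heavy chain of the Slc3 family, which brings it to the surface. Sodium-coupled carriers of the Slc1, Slc6 and Slc38 families take up amino acids against their gradient, and members of the Slc38 and Slc36 families also act at the lysosome, where amino acids are sensed by mTORC1. Several of these genes are textbook targets of ATF4, the transcription factor that is made when amino acids are short, and Slc7a11, the cystine carrier, is also a target of NRF2.

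Array medians lay between 4.775 and 4.849 on the log2 scale, and over the 63 genes the 2 arrays of a group had a median SD of 0.0901 to 0.121. As a share of the mean control intensity, the targeted gene stood at 83.6% and 69.8% for Sox2 (limma adjusted p = 0.301), 90.5% and 82.7% for Psmd14, and 22.1% and 46.1% for Ddb1, each on the arrays of its own siRNA. None of these falls passed the threshold against siNonTarget. Ddb1 read 9.67 and 10.73 in siDdb1 and at least 11.81 on every other array. Its change from siNonTarget was -1.65 (limma adjusted p = 0.147), and it was lower in siDdb1 than in siSox2 by a log2 difference of -1.92 that passed (limma adjusted p = 0.00888). It was also higher in siPsmd14 than in siDdb1, by 1.87 (limma adjusted p = 0.0321). Sox2 and Psmd14 passed in no comparison. The 10 embryonic stem cell markers, among them Pou5f1, Nanog and Dppa5a, read between 9.21 and 14.11 on every array, and Esrrb fell in siSox2. Their summed intensity was 57280 to 62940 in siNonTarget, 47280 to 51450 in siSox2, 49250 to 51710 in siPsmd14 and 54140 to 55510 in siDdb1. Of the 9 fibroblast markers, which feeder cells would carry, Col1a1, Col3a1, Postn and Lum had group means of 3.02 to 4.01. Col1a2, Dcn and Thy1 had group means of 4.70 to 6.20, and Fn1 and Vim, which other cells also make, of 10.72 to 11.24.

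Promoter sequence is shown for a few members for which the RefSeq table held an entry, chosen for the reason given with each. The table (build GRCm38.p6) held windows for 46 of the 63 genes, 67 windows in all, and Slc7a3, Slc6a15 and Slc6a8 were not among them. The 250 bases before an annotated start are printed here. Slc38a4 is shown because it rose in siSox2 and differed between siPsmd14 and siSox2. The capitals mark the letters ACAANG on either strand, a core that SOX proteins can bind, which was chosen after the values were seen. It was present in 41.2% of all 32851 windows of 300 bases.
Slc38a4, chr15:97031214-97031463, minus strand, GRCm38.p6: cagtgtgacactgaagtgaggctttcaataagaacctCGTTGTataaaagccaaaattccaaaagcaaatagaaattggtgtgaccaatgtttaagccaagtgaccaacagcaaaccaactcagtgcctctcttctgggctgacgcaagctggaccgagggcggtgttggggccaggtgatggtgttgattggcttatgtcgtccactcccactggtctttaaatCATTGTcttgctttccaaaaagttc
Slc38a4, chr15:97020360-97020609, minus strand, GRCm38.p6: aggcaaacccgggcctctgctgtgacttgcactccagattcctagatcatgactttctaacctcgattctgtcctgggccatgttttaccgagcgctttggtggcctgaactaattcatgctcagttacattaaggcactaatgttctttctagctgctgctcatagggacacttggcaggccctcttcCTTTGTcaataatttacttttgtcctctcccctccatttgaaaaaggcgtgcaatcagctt
The first of these starts held the core 213 and 25 bases before the start and the second held it 61 bases before. Another annotated start of Slc38a4 held none. These matches describe letters and are not shown to be sites.

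Slc7a11 and Slc7a7 are shown because a window of each holds the letters TGATGNAA, the core of the amino acid response element that ATF4 binds, marked in capitals. On either strand that core was present in 3.97% of all windows and in 5 of the 67 windows of these genes, from Slc1a4, Slc6a21, Slc7a7 and Slc7a11.
Slc7a11, chr3:50443614-50443863, minus strand, GRCm38.p6: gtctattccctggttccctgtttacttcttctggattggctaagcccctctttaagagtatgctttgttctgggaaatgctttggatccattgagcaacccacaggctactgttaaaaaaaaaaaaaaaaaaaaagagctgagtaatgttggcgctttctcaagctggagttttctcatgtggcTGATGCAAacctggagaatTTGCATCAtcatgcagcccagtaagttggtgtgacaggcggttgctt
Slc7a7, chr14:54417703-54417952, minus strand, GRCm38.p6: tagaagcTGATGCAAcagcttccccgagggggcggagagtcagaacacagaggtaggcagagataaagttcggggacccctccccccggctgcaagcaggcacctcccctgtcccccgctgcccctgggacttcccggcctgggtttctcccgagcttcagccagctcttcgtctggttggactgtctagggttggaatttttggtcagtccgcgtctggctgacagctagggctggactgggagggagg
Slc7a11 carried the core on both strands, 66 and 47 bases before its start, and this start of Slc7a7 carried it 243 bases before. Another annotated start of Slc7a7, not printed, carried it 141 bases and 1 base before. The remaining annotated starts of Slc7a7 held none. The core of the antioxidant response element, TGACNNNGC, through which NRF2 acts, was present on either strand in 12.4% of all windows and in 12 of the 67, and in neither of the printed windows of Slc7a11 and Slc7a7.

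In siSox2, 2 of the carrier genes fell and 2 rose against siNonTarget. The arginine and lysine carrier Slc7a3 fell to 0.211 of its control level and the neutral amino acid carrier Slc6a15 to 0.257, while the creatine carrier Slc6a8 rose 2.24-fold and the small neutral amino acid carrier Slc38a4 rose 1.52-fold. The other 59 genes did not pass. A gene passed when its limma p, adjusted by the Benjamini-Hochberg method over all probe sets, was under 0.05, and 4.28% of all genes did so in siSox2 (2.81% higher and 1.46% lower). The 4 of 63 found here are 6.35%. The median log2 fold change of the 63 genes was -0.05, beside -0.03 for all genes. Both siSox2 arrays lay above both control arrays for 12 of the 63 genes, beside 23.3% of all genes, and below them for 22, beside 29.3%.

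Slc7a3, the cationic amino acid transporter that takes up arginine and lysine, read 11.19 and 11.30 on the log2 scale in siNonTarget, 9.37 and 8.63 in siSox2, 10.42 and 10.56 in siPsmd14, with 10.15 and 10.89 in siDdb1. Both siSox2 arrays lay below every other array, and the arrays of the other knockdowns lay between them and the control arrays. The log2 fold change in siSox2 was -2.25 (SE 0.27, n = 2 arrays per group, limma adjusted p = 0.00418). In siPsmd14 it was -0.76 (95% interval -1.38 to -0.14, limma adjusted p = 0.243) and in siDdb1 -0.72 (-1.34 to -0.10, limma adjusted p = 0.532), and neither passed. All of these comparisons share the control arrays. Set against siSox2 directly, Slc7a3 was higher by 1.49 in siPsmd14 (limma adjusted p = 0.0251) and by 1.52 in siDdb1 (limma adjusted p = 0.0217). The first of these calls was lost without either siNonTarget array, siSox2 replicate 2 or either siPsmd14 array, and the second without either siNonTarget array, siSox2 replicate 2 or siDdb1 replicate 2, with limma adjusted p reaching 0.16 and 0.146. Leaving out 1 array kept the siSox2 call in 7 of 8 cases, and without siNonTarget replicate 2 the change was -2.19 (limma adjusted p = 0.0742).

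Slc7a1, Slc7a2 and Slc7a4, which also belong to the cationic transporter branch of Slc7, were not called in any comparison. Slc7a1, the widely expressed arginine carrier, read 9.13 and 10.20 in siNonTarget, 9.11 and 10.01 in siSox2, 9.66 and 9.53 in siPsmd14, with 9.45 and 9.16 in siDdb1. The control arrays themselves lay over 1 log2 unit apart, so the interval of its siSox2 change ran from -0.92 to 0.70. Slc7a2 and Slc7a4 had siSox2 changes of 0.03 and -0.28.

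Slc6a15, a sodium-coupled carrier of branched-chain amino acids and proline, read 7.70 and 7.59 in siNonTarget, 6.17 and 5.2 in siSox2, 7.0 and 7.07 in siPsmd14, with 6.17 and 7.32 in siDdb1. Every knockdown array lay below both control arrays, and siDdb1 replicate 1 lay as low as siSox2 replicate 1. The siSox2 change was -1.96 (SE 0.37, limma adjusted p = 0.0286). The changes in siPsmd14 (-0.61, limma adjusted p = 0.517) and siDdb1 (-0.90, limma adjusted p = 0.583) did not pass. Direct differences from siSox2 were 1.35 in siPsmd14 (limma adjusted p = 0.104) and 1.06 in siDdb1 (limma adjusted p = 0.211), so a difference between knockdowns was not shown for this gene. The siSox2 call was lost without siSox2 replicate 2 (-1.48, limma adjusted p = 0.216), without siNonTarget replicate 1 (adjusted p = 0.17) and without siNonTarget replicate 2 (adjusted p = 0.189).

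Slc6a8, which carries creatine rather than an amino acid although it belongs to the Slc6 family, read 8.67 and 8.82 in siNonTarget, 9.58 and 10.24 in siSox2, 9.02 and 8.76 in siPsmd14, with 9.54 and 8.94 in siDdb1. The siSox2 arrays were the highest, with siDdb1 replicate 1 just below them. The siSox2 change was 1.16 (SE 0.25, limma adjusted p = 0.0441), and another probe set of Slc6a8 gave 1.25 (limma adjusted p = 0.0323). The call was lost without siSox2 replicate 2 (0.83, limma adjusted p = 0.321), without either siNonTarget array (adjusted p = 0.23 and 0.215) and without either siPsmd14 array (adjusted p = 0.0563). It was also lost under quantile normalization (limma adjusted p = 0.0516). Slc6a6, the taurine carrier, read 11.18 and 11.03 in siNonTarget, 11.01 and 11.22 in siSox2, 10.65 and 11.24 in siPsmd14, with 10.99 and 11.03 in siDdb1. The siSox2 and siPsmd14 arrays overlapped the control arrays, the siDdb1 arrays lay at their lower end, and no change passed.

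Slc38a4, a sodium-coupled carrier of small neutral amino acids and an imprinted gene, read 10.87 and 10.84 in siNonTarget, 11.42 and 11.49 in siSox2, 10.57 and 10.72 in siPsmd14, with 10.90 and 11.05 in siDdb1. The arrays of each group lay close together and the siSox2 arrays lay above all others. The siSox2 change was 0.60 (SE 0.12, limma adjusted p = 0.0401) and another probe set of Slc38a4 gave 0.97 (limma adjusted p = 0.0141). In siPsmd14 the gene was lower than in siSox2 by a log2 difference of -0.81 (limma adjusted p = 0.0133), and by -0.97 on the other probe set (limma adjusted p = 0.0159). That call was lost without siSox2 replicate 2 or siPsmd14 replicate 1, with limma adjusted p reaching 0.103. In siDdb1 the difference from siSox2 was -0.48 (limma adjusted p = 0.0893), and the other probe set passed with -0.77 (limma adjusted p = 0.0343). Without any 1 of the siNonTarget, siSox2 or siDdb1 arrays the siSox2 call was lost, with limma adjusted p from 0.0544 to 0.288 and changes from 0.56 to 0.64. It was also lost with only the 4 arrays compared in the fit (limma adjusted p = 0.0566). Its neighbours on the chromosome, Slc38a2 and beyond it Slc38a1, had siSox2 changes of -0.15 and 0.26, neither past the threshold.

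**Figure D1:**
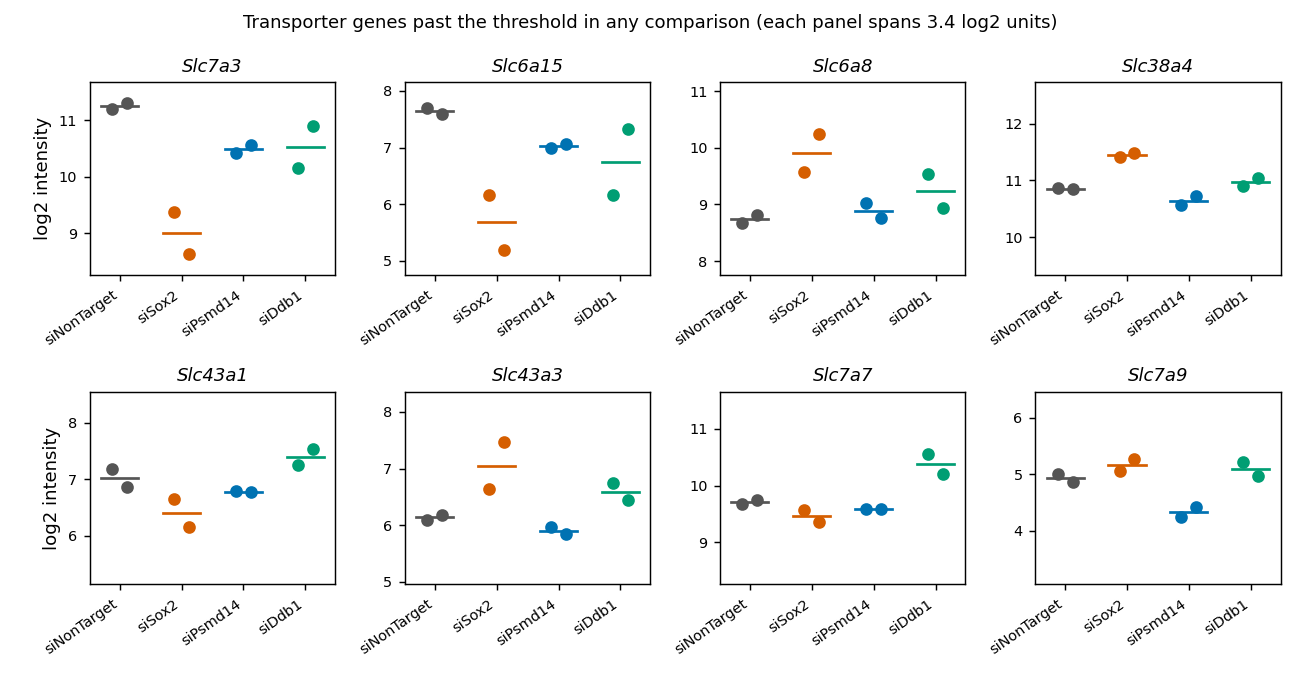
Log2 intensity of the 8 transporter genes that passed the threshold in at least 1 of the 6 comparisons, with each of the 2 arrays per group as a point and the group mean as a line. Each panel spans the same number of log2 units. The siSox2 arrays are the lowest for Slc7a3 (9.37 and 8.63) and the highest for Slc38a4 (11.42 and 11.49), while Slc7a7 stands higher in siDdb1 (10.56 and 10.20).

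In siPsmd14 and siDdb1, none of the 63 genes passed against siNonTarget in the limma test. In siPsmd14 1.89% of all genes passed (1.7% higher and 0.187% lower), and in siDdb1 0.044% did, all of them higher. At an unadjusted limma p under 0.05, 7 of the 63 passed in siPsmd14 and 6 in siDdb1, beside 17.1% and 9.86% of all genes. The median log2 fold changes of the 63 genes were -0.03 in siPsmd14 and -0.01 in siDdb1, each beside -0.01 for all genes. At the median SE of 0.15 over the 63 genes, an unadjusted 95% interval reached 0.339 log2 units to either side. For a gene with that SE, a smaller change could not be told from 0, while genes with a smaller SE had narrower intervals. The adjusted threshold is stricter, so larger changes could also fail to pass. The changes that did not pass ran from -0.76 to 0.6 in siPsmd14 and from -0.9 to 0.84 in siDdb1.

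Among the 24 members that were brighter than the median gene, the largest departures in siPsmd14 were those of Slc7a3 and Slc6a15, given above, and of Slc7a6 (-0.45, limma adjusted p = 0.338) on the lower side. Slc7a6 is a light chain that exchanges cationic for neutral amino acids. On the upper side stood Slc38a7, the lysosomal glutamine exporter (0.51, 95% interval 0.17 to 0.84, limma adjusted p = 0.151). It read 7.39 and 7.24 in siNonTarget and 7.96 and 7.69 in siPsmd14, with no overlap, and 7.54 and 7.78 in siSox2. Slc6a8 (0.14, limma adjusted p = 0.86) and Slc36a1, a proton-coupled amino acid carrier of the lysosome (0.13, limma adjusted p = 0.773), followed. Both siPsmd14 arrays lay above both control arrays for 9 of the 63 genes, beside 22.4% of all genes, and below them for 17, beside 24.1%.

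In siDdb1 the largest departures among those 24 members were upward for Slc43a2 (0.84), Slc7a7 (0.66) and Slc6a8 (0.49), and downward for Slc6a15, Slc7a3 and Slc7a1 (-0.36). Slc43a2, a carrier of branched-chain amino acids and phenylalanine, read 6.43 and 6.46 in siNonTarget and 7.69 and 6.86 in siDdb1 (95% interval 0.13 to 1.55, limma adjusted p = 0.526). Slc38a2, the sodium-coupled carrier of glutamine and alanine that cells raise when amino acids are short, read 12.11 and 12.24 in siNonTarget and 12.55 and 12.50 in siDdb1 (0.35, 95% interval -0.10 to 0.79, limma adjusted p = 0.728). Its other probe sets gave 0.68 and 0.55, also not past the threshold. The siDdb1 arrays lay above both control arrays for 15 of the 63 genes, beside 19.8% of all genes, and below them for 10, beside 22.3%.

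**Figure D2:**
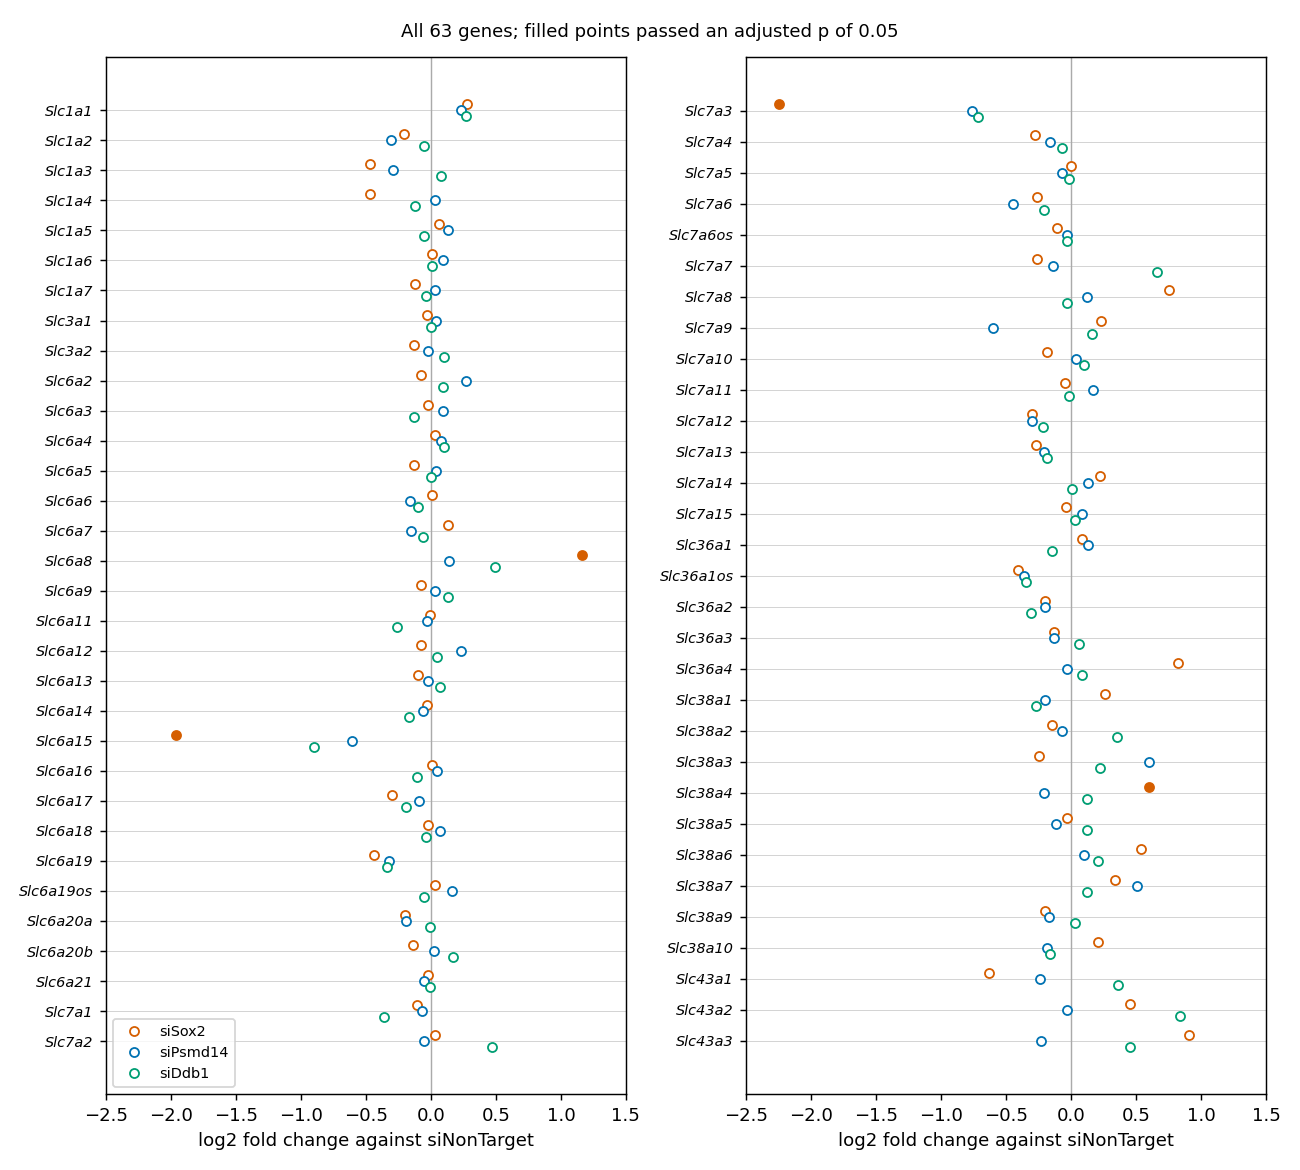
Log2 fold change of all 63 genes against siNonTarget in siSox2, siPsmd14 and siDdb1, with 2 arrays per group. Filled points passed a limma adjusted p of 0.05 and open points did not. The 4 filled points are Slc7a3 (-2.25), Slc6a15 (-1.96), Slc6a8 (1.16) and Slc38a4 (0.60), all in siSox2.

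Among the heteromeric carriers, 2 of the 9 light chains were called, each in 1 comparison between knockdowns, and neither of the heavy chains was called in any comparison. Slc7a7 was higher in siDdb1 than in siSox2, where 2.03% of all genes were, and Slc7a9 was lower in siPsmd14 than in siSox2, where 2.05% of all genes were. Slc7a7, the light chain that exports arginine and lysine in exchange for neutral amino acids, read 9.68 and 9.75 in siNonTarget, 9.56 and 9.35 in siSox2, 9.58 and 9.58 in siPsmd14, with 10.56 and 10.20 in siDdb1. Both siDdb1 arrays lay above all others. The gene was higher in siDdb1 than in siSox2 by 0.92 (SE 0.15, limma adjusted p = 0.0143), while the change from siNonTarget, 0.66, had an interval of 0.32 to 1.0 and did not pass (limma adjusted p = 0.25). In siPsmd14 it was lower than in siDdb1 by a log2 difference of -0.80 that did not pass (limma adjusted p = 0.0723), and another probe set of Slc7a7 passed there with -1.07 (limma adjusted p = 0.0317). The call against siSox2 was lost without siSox2 replicate 2 or siDdb1 replicate 1, with limma adjusted p reaching 0.127.

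Slc7a9, the light chain of the cystine and cationic amino acid carrier, read 5.0 and 4.86 in siNonTarget, 5.06 and 5.27 in siSox2, 4.24 and 4.43 in siPsmd14, with 5.22 and 4.96 in siDdb1. The siPsmd14 arrays were the lowest. The difference between siPsmd14 and siSox2 was -0.83 (SE 0.15, limma adjusted p = 0.0226), and the change from siNonTarget, -0.60, did not pass (limma adjusted p = 0.102). The signal lay close to the array medians in every group. Without siSox2 replicate 2 or siPsmd14 replicate 1 the call was lost, with limma adjusted p reaching 0.175. Slc3a1, the heavy chain that pairs with Slc7a9, read 3.16 and 3.52 in siNonTarget, 3.34 and 3.28 in siSox2, 3.65 and 3.11 in siPsmd14, with 3.18 and 3.50 in siDdb1, with all groups overlapping.

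Slc3a2, the heavy chain that most light chains of these cells would need, and Slc7a5, the light chain that imports leucine and other large neutral amino acids, did not pass in any comparison. Slc3a2 read 11.34 and 11.48 in siNonTarget, 11.27 and 11.30 in siSox2, 11.38 and 11.40 in siPsmd14, with 11.56 and 11.47 in siDdb1. Slc7a5 read 11.05 and 11.0, 10.97 and 11.08, 10.98 and 10.92, and 11.06 and 10.95 in the same order. Their changes against siNonTarget had 95% intervals within -0.40 to 0.38 for Slc3a2 and -0.34 to 0.27 for Slc7a5.

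Slc7a11, the cystine light chain whose promoter window is printed above, read 3.10 and 3.10 in siNonTarget, 3.05 and 3.05 in siSox2, 3.28 and 3.25 in siPsmd14, with 3.16 and 3.01 in siDdb1, which is below the array medians throughout. The siPsmd14 change was 0.17 (95% interval -0.10 to 0.43, limma adjusted p = 0.592), and its other probe set gave -0.05. Of the 9 light chains, none passed in any knockdown against siNonTarget, and their siSox2 changes ran from -0.30 to 0.75. The highest was that of Slc7a8, a light chain for small and large neutral amino acids, which read 3.72 and 3.68 in siNonTarget and 4.0 and 4.91 in siSox2 (limma adjusted p = 0.17).

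Of the 3 genes of the Slc43 family, Slc43a1 and Slc43a3 were each called in 1 comparison between knockdowns, and Slc43a2 passed in none. Slc43a1 was higher in siDdb1 than in siSox2, where 2.03% of all genes were. Slc43a3 was lower in siPsmd14 than in siSox2, where 2.05% of all genes were. Slc43a1, a facilitative carrier of branched-chain amino acids, read 7.19 and 6.87 in siNonTarget, 6.65 and 6.15 in siSox2, 6.79 and 6.78 in siPsmd14, with 7.25 and 7.54 in siDdb1. It was higher in siDdb1 than in siSox2 by 0.99 (SE 0.19, limma adjusted p = 0.0277), with changes of -0.63 in siSox2 and 0.36 in siDdb1 against siNonTarget that did not pass. That call was lost without siSox2 replicate 2 or either siDdb1 array, with limma adjusted p reaching 0.199. Slc43a3, which carries nucleobases and not amino acids, read 6.10 and 6.18 in siNonTarget, 6.64 and 7.46 in siSox2, 5.96 and 5.85 in siPsmd14, with 6.75 and 6.44 in siDdb1. It was lower in siPsmd14 than in siSox2 by a log2 difference of -1.14 (SE 0.24, limma adjusted p = 0.0413). Against siNonTarget its siSox2 change was 0.91 (limma adjusted p = 0.0886). Leaving out any 1 array other than siSox2 replicate 1 ended that call.

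Over the 3 comparisons between knockdowns, 4 of the 63 genes passed between siPsmd14 and siSox2, where 4.03% of all genes did (1.98% higher and 2.05% lower in siPsmd14). Between siDdb1 and siSox2 it was 3 of 63, where 4.63% of all genes did (2.03% higher and 2.6% lower in siDdb1). Slc7a3 was the gene called in both. Between siPsmd14 and siDdb1 none passed in the limma test, where 0.588% of all genes did (0.456% higher and 0.132% lower in siPsmd14), and 9 of the 63 had an unadjusted limma p under 0.05, beside 12.4% of all genes. Both siPsmd14 arrays lay above both siSox2 arrays for 17 of the 63 genes (25.5% of all genes) and below them for 11 (22.4%). For siDdb1 against siSox2 it was 17 above (26.4%) and 12 below (23.9%), and for siPsmd14 against siDdb1 11 above (19.6%) and 15 below (20.5%). Among the brighter members that did not pass, Slc6a8 differed by -1.02 between siPsmd14 and siSox2 (limma adjusted p = 0.0707) and by -0.67 between siDdb1 and siSox2 (limma adjusted p = 0.239). Between siPsmd14 and siDdb1 the widest differences among the 24 members brighter than the median gene were those of Slc43a2 (-0.87), Slc7a7 and Slc43a3 (-0.68) on the lower side, and of Slc38a7 (0.39), Slc7a1 (0.29) and Slc6a15 (0.29) on the upper side. None of the calls between knockdowns was kept when only the 4 arrays compared entered the fit. Without siSox2 replicate 2 it was 0 of 63 for both siPsmd14 and siDdb1, and without siPsmd14 replicate 1 it was 0 for siPsmd14.

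On the brightest probe set of each gene, no Slc1 or Slc38 carrier other than Slc38a4 was called in any comparison. Slc1a5, the glutamine and serine exchanger, read 5.58 and 6.05 in siNonTarget, 5.80 and 5.94 in siSox2, 6.04 and 5.85 in siPsmd14, with 5.86 and 5.66 in siDdb1, with all groups overlapping. Slc1a4, its alanine and serine exchanging relative, read 6.49 and 7.12 in siNonTarget, 6.05 and 6.62 in siSox2, 6.95 and 6.73 in siPsmd14, with 6.75 and 6.63 in siDdb1. Its siSox2 change was -0.47 with a 95% interval of -1.01 to 0.07. Slc38a1, a sodium-coupled glutamine carrier, read 10.26 and 10.44 in siNonTarget, 10.49 and 10.72 in siSox2, 9.88 and 10.41 in siPsmd14, with 9.86 and 10.29 in siDdb1. Its difference between siDdb1 and siSox2 was -0.53 (limma adjusted p = 0.272). Of the 9 Slc38 genes, 1 rose in siSox2 (Slc38a4), where 2.81% of all genes rose, and none fell, where 1.46% did. Slc38a3, a glutamine carrier, read 5.16 and 5.45 in siNonTarget, 5.97 and 5.84 in siPsmd14 and 5.06 and 5.06 in siSox2, and missed the threshold between these knockdowns (0.85, limma adjusted p = 0.0564).

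**Figure D3:**
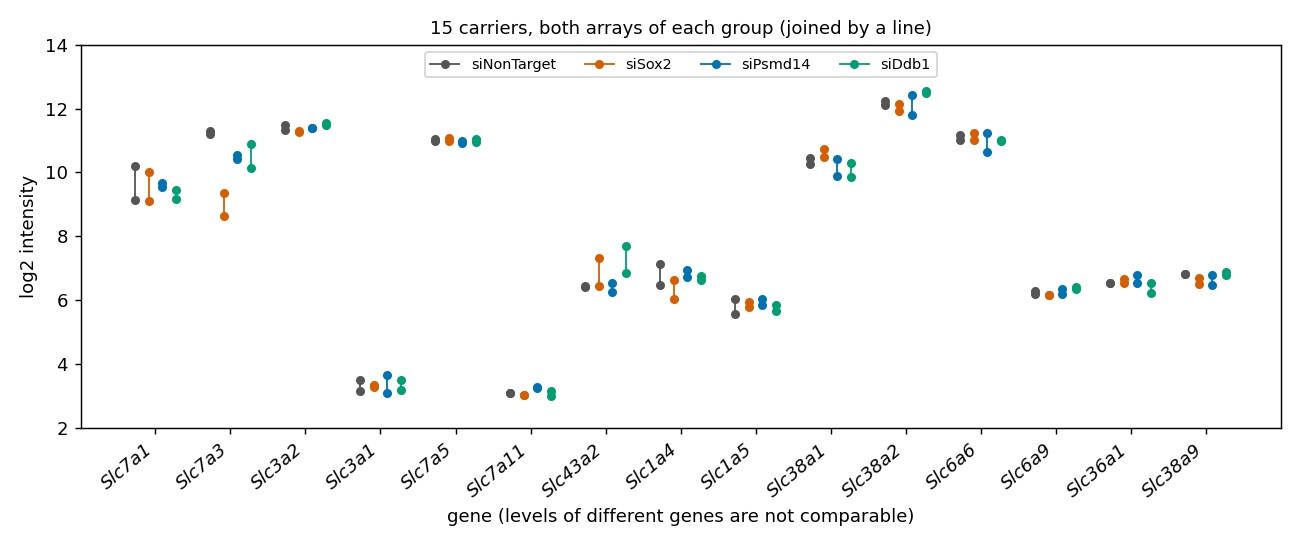
Log2 intensity on both arrays of each group for 15 carriers, with the arrays of a group joined by a line. Intensities of different genes cannot be compared. Slc3a2, Slc7a5 and, on its brightest probe set, Slc38a9 keep all 8 arrays close together, whereas the siNonTarget arrays of Slc7a1 lie at 9.13 and 10.20.

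At the lysosome, Slc38a9, which reports arginine to mTORC1, read 6.81 and 6.81 in siNonTarget, 6.50 and 6.70 in siSox2, 6.48 and 6.79 in siPsmd14, with 6.88 and 6.79 in siDdb1, and its changes ran from -0.20 to 0.03. Its dimmer probe sets were less flat. The mean of the probe set that moved most was 4.08 in siNonTarget and 4.97 in siDdb1. From siNonTarget to siPsmd14, another went from 5.11 to 4.63 and another from 5.81 to 6.12. Slc36a1 read 6.53 on both control arrays, 6.68 and 6.54 in siSox2, 6.53 and 6.78 in siPsmd14, with 6.23 and 6.53 in siDdb1. Of the 4 Slc36 carriers none passed. The highest siSox2 change among them was that of Slc36a4 (0.82, limma adjusted p = 0.12), on arrays reading 4.49 and 4.79 in siNonTarget and 5.13 and 5.78 in siSox2.

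The carriers of neurotransmitters and of glutamate are best known from the nervous system. The 8 Slc6 carriers of monoamines, GABA, betaine and glycine (Slc6a2, Slc6a3, Slc6a4, Slc6a5, Slc6a9, Slc6a11, Slc6a12 and Slc6a13) read between 3.41 and 6.41 on all arrays. Slc6a9, a glycine carrier, read 6.30 and 6.21 in siNonTarget, 6.18 and 6.16 in siSox2, 6.36 and 6.20 in siPsmd14, with 6.41 and 6.36 in siDdb1. On the brightest probe set of each gene, none of the 8 passed in any comparison, and their siSox2 changes ran from -0.13 to 0.03. The other probe set of Slc6a9 was less flat, with means of 6.28 in siNonTarget, 5.75 in siSox2, 6.5 in siPsmd14 and 5.93 in siDdb1. The 5 glutamate carriers read between 4.23 and 6.24, with siSox2 changes of -0.47 to 0.28. Slc1a3, the glial glutamate carrier, had the lowest of these (-0.47, limma adjusted p = 0.09), and of its 5 other probe sets 1 passed, with -0.57 (limma adjusted p = 0.036). The remaining probe sets of Slc1a3 gave -1.16 (limma adjusted p = 0.0956), -0.54, -0.33 and -0.22, none past the threshold. The intestinal and renal carriers Slc6a18, Slc6a19, Slc6a20a and Slc6a20b read below 4.75 on all arrays.

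The other genes of amino acid handling were read from lists chosen by function. Of 24 genes of the ATF4 and integrated stress response, 2 rose in siSox2, namely Cebpb (2.30, limma adjusted p = 0.000332), a stress and differentiation factor, and Ndrg1 (1.69), and none fell. In siPsmd14 2 rose, Cebpb (1.25) and Ddit3 (1.21, limma adjusted p = 0.0482), and none fell. In siDdb1 none passed, and Ddit4 (1.59, limma adjusted p = 0.15) and Jdp2 (-1.20) had the smallest p. Set against siSox2, Cebpb and Ndrg1 were lower in siPsmd14 (-1.05 and -1.21) and in siDdb1 (-2.25 and -1.53), and Ddit4 was higher in siDdb1 (1.29, limma adjusted p = 0.0421). The list's medians were -0.10, 0.18 and -0.06 in siSox2, siPsmd14 and siDdb1.

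Of the 19 aminoacyl-tRNA synthetases, which charge transfer RNAs with amino acids, none passed in any comparison, and their medians were -0.11, -0.12 and -0.03. Sars had the smallest p in each knockdown, with -0.44 in siSox2, -0.38 in siPsmd14 and -0.33 in siDdb1. Next to it stood Tars in siSox2 (-0.38), Farsa in siPsmd14 (-0.22) and Yars in siDdb1 (-0.33). Of 32 enzymes of amino acid synthesis and breakdown, Asl, the arginine-forming lyase of the urea cycle, rose in siSox2 (1.22, limma adjusted p = 0.00198). Bcat2, the mitochondrial branched-chain aminotransferase, fell there (-0.66, limma adjusted p = 0.0493). None passed in siPsmd14, where Bcat2 (-0.69, limma adjusted p = 0.0622) and Bckdhb (-0.53) had the smallest p, or in siDdb1, where Glud1 (0.52) and Aldh4a1 (0.54) did. Asl was also lower in siPsmd14 (-1.29) and siDdb1 (-1.01) than in siSox2.

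Of 31 genes of lysosomal amino acid sensing none passed against siNonTarget. The smallest p were those of Tfe3 (-0.44) and Tfeb (0.47) in siSox2, Seh1l (-0.44) and Nprl2 (-0.36) in siPsmd14, and Sesn3 (0.76) and Tfeb (-0.53) in siDdb1. Between siDdb1 and siSox2, Tfeb, a lysosomal transcription factor, was lower (-1.0, limma adjusted p = 0.0113) and Sesn3, a sestrin, was higher (1.06, limma adjusted p = 0.0346). In siPsmd14 1 gene of the list also passed as lower than in siSox2, and the lowest change there was that of Tfeb (-0.74).

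Of 22 amino acid carriers outside the 7 families, Slc66a1, the lysosomal exporter of cationic amino acids, rose in siPsmd14 (0.68, SE 0.12, limma adjusted p = 0.0397), with Slc16a10, the aromatic amino acid carrier, next (0.58, limma adjusted p = 0.0943). None passed in siSox2, where Slc25a12 gave -0.51 and Slc66a1 0.39, or in siDdb1, where Slc16a10 gave 0.45 and Slc25a38 -0.33. Of 19 genes of glutathione synthesis and NRF2 targets, 4 rose in siPsmd14, namely Me1 (1.81), Sqstm1 (1.75), Cat (0.88) and Srxn1 (1.61), and none fell. Sqstm1 also rose in siSox2 (1.07, limma adjusted p = 0.0423). In siDdb1 none passed, with Keap1 at -0.29 and Gclc at 0.29. The cystine carrier Slc7a11, which belongs to the same response, read 3.28 and 3.25 in siPsmd14, beside 3.10 on both control arrays. That change did not pass, and the signal lay below the array medians. Its other probe set had means of 3.07 in siPsmd14 and 3.12 in siNonTarget.

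**Figure D4:**
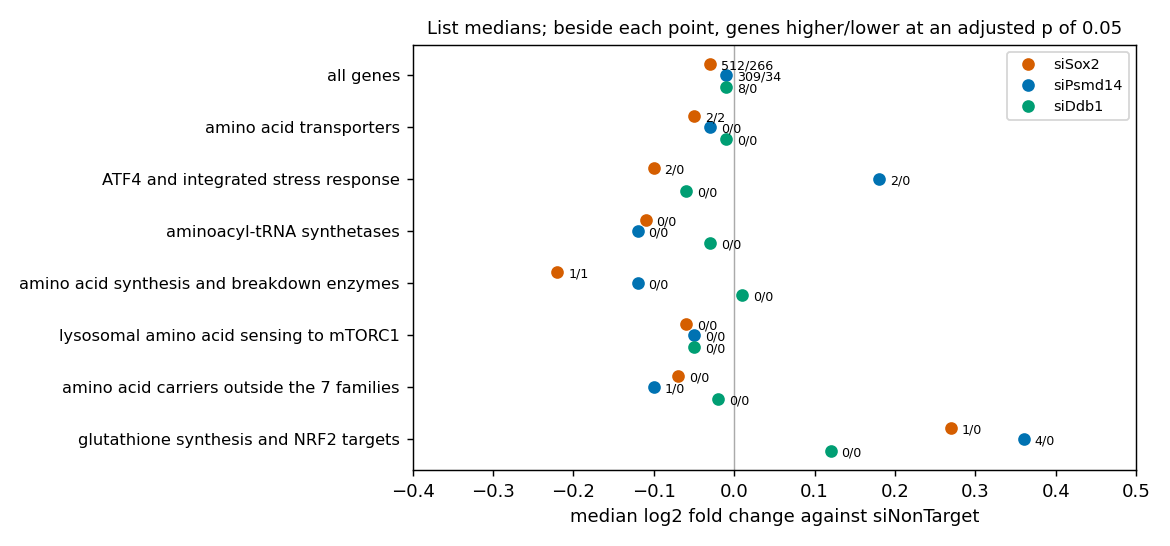
Median log2 fold change against siNonTarget of all genes, of the 63 amino acid transporter genes and of the 6 lists of related genes, in siSox2, siPsmd14 and siDdb1. The numbers beside a point count the genes that were higher and lower at a limma adjusted p of 0.05. The transporters' medians (-0.05, -0.03 and -0.01) lie beside those of all genes, and the glutathione and NRF2 list lies at 0.36 in siPsmd14.

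Markers of other cell types changed in siSox2 and, fewer of them, in siPsmd14. Of 10 trophoblast markers 7 rose in siSox2 (among them Cdx2, Krt7, Plac1 and Ascl2) and none fell. Their summed intensity was 1868 to 2145 in siNonTarget, 13750 to 26330 in siSox2, 9191 to 11020 in siPsmd14 and 3045 to 3345 in siDdb1. Such sums of linear intensity are weighted to the brightest markers, here Krt8 and Krt18. Those 2 had means of 12.46 and 11.89 in siPsmd14, beside 9.83 and 9.52 in siNonTarget. The median log2 change of the 10 markers was 2.71 in siSox2, 0.82 in siPsmd14 and 0.59 in siDdb1. In siPsmd14 3 rose, the keratins Krt7, Krt8 and Krt18, and no marker outside the keratins passed. Of 8 primitive endoderm markers 3 rose (Gata6, Foxa2 and Dab2) and Lama1 fell in siSox2, with sums of 315.1 to 380.1 in siNonTarget, 486 to 699.9 in siSox2, 357.6 to 359.4 in siPsmd14 and 325.4 to 361.9 in siDdb1. Of 6 neural markers 3 fell in siSox2 (Pax6, Tubb3 and Neurod1), with sums of 1491 to 1582 in siNonTarget and 826.6 to 886 in siSox2, 1578 to 1745 in siPsmd14 and 1762 to 1864 in siDdb1, and Nes rose in siPsmd14. Of 9 fibroblast markers Thy1 fell in siSox2, with sums of 4007 to 4547 in siNonTarget, 3287 to 4330 in siSox2, 3794 to 4868 in siPsmd14 and 4203 to 4295 in siDdb1. Those sums are mostly Fn1 and Vim, which other cells also make. The part of these cell types in the changes of Slc7a3, Slc6a15, Slc6a8 and Slc38a4 was not tested. The log2 signal of the 3' Actb control probe set exceeded that of the 5' one, a measure of how intact the RNA was, by 0.346 on siPsmd14 replicate 1. On the remaining arrays the excess was 0.096 to 0.214, and its part in the siPsmd14 values was not tested.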

How the data were processed

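Expression was measured on 8 Affymetrix arrays, 2 for each of 4 siRNA groups, from 5 ng of RNA after NuGEN Ovation amplification (per the labels' protocols). The submitters' processing notes name RMA as the source of the deposited intensity values. Version and settings were not given in the sources used here. The values are linear and were converted to log2. Each is scaled to the array as a whole, so a change in total RNA per cell is not visible, and the number of arrays limits the precision. No detection calls or scanner files were used here.

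The 64 control probe sets were left out of the 45101, leaving 45037. GEO's platform annotation gave 34945 of these 1 symbol, 932 several and 9160 none. A gene was named from probe sets with 1 symbol and read from the one with the highest mean log2 value. All 63 Entrez identifiers were found in the reference table and 0 were renamed. Of the 63 genes, 31 had 1 probe set and 32 had more.

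The fit used limma 3.58.1 (R 4.3.3) with all 8 arrays together (lmFit, eBayes without trend, group as the factor, total degrees of freedom 9.02), with p adjusted by the Benjamini-Hochberg method over 45037 probe sets and a threshold of 0.05. The 6 comparisons were each knockdown against siNonTarget and the knockdowns against each other. The scripts were tested on simulated data. Lists are described by counts and medians, with no list test. Named members were those past the threshold, 15 carriers named throughout and, per comparison, the 3 highest and 3 lowest changes among members brighter than the median gene. From lists, at most 5 genes past the threshold against siNonTarget were named, or the 2 with the smallest p. List genes past the threshold between knockdowns were named only in part. The members, roles and lists were chosen with earlier results of these data known. Alternatives were a dim filter, quantile normalization, median centring, eBayes with trend and robust, 4 arrays alone, a replicate block, other ways of reading a gene, and each array omitted in turn. A block with crossed siDdb1 numbers was added after the data were seen.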

Additional observations from a re-analysis of the deposited data

How the results depend on the processing

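The number of the 63 transporter genes past the threshold was 4 in siSox2 against siNonTarget, 0 in siPsmd14 and 0 in siDdb1, 4 between siPsmd14 and siSox2, 3 between siDdb1 and siSox2 and 0 between siPsmd14 and siDdb1. With the planned settings that kept all arrays in the fit, these counts moved by over 1.5 times in 2 cases, eBayes with trend and robust and the mean over the probe sets of a gene, each of which gave 1 gene (Slc7a7) between siPsmd14 and siDdb1. With only the 4 arrays compared in the fit, 0 passed between siPsmd14 and siSox2 and 0 between siDdb1 and siSox2, where fewer arrays estimate the spread. In siSox2 against siNonTarget 3 passed with that fit, and Slc38a4 was lost (limma adjusted p = 0.0566). Leaving out each of the 8 arrays in turn gave 0 to 6 genes in siSox2, 0 to 6 between siPsmd14 and siSox2, 0 to 4 between siDdb1 and siSox2, and 0 to 0 elsewhere. In siSox2 the count was 0 without siNonTarget replicate 2, and 1 (Slc7a3) without siNonTarget replicate 1 or siSox2 replicate 2. An array left out of a group that is not compared changes the estimate of the spread and no fold change.

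Whether the replicate numbers pair the arrays across groups is not known. Differences between replicates correlated at -0.217 to 0.242 between groups, and correlations of this size cannot decide it. With the replicate block 3 genes passed in siSox2, where Slc6a8 was lost (limma adjusted p = 0.06), and the block changed no other call among the transporter genes. With the siDdb1 numbers crossed, 5 passed in siSox2, 8 between siPsmd14 and siSox2 and 4 between siDdb1 and siSox2. The share of all genes that passed was not counted under any of these alternative settings. A change in the counts of transporter genes therefore cannot be told from a change over all genes. Of 116 gene values no called value changed sign, and 46 uncalled ones changed sign under some setting and stayed uncalled.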
